A study of Trichosurus vulpecula with 116 samples.

Results

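The livers of 6 juvenile and 44 adult brushtail possums (*Trichosurus vulpecula*), a marsupial introduced to New Zealand, were compared around the age at which young leave the pouch and stop taking milk. The 50 libraries were taken from 116 RNA-sequencing libraries of possum tissues, as every liver labelled adult and every liver labelled juvenile apart from that of the backrider Sheila. A juvenile was a young animal still found with its mother and too old to be staged on the growth chart of the study, and an adult was an animal found without a mother. Ages in days of single animals were not used for these groups. All were possums of the Dunedin region with a field site and no treatment named in the labels.

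The 6 juveniles were 3 males and 3 females, and the adults were 29 males and 15 females. Libraries came from 2 preparation kits, NEXTFLEX for 2 juveniles and 15 adults and NEBNext for 4 juveniles and 29 adults, and both NEXTFLEX juveniles were male. By the dates in the labels all 6 juveniles and 28 adults were collected in the same year, while 15 adults, all NEBNext, came from the following year and 1 adult had no date. Of the juveniles, 5 had their own mother among the adults, collected on the same day and prepared with the same kit, whereas the mother of 220920_PY01, named Raven in the labels, was not analysed here. Raven is also named as the mother of a pouch young of 9 days from the following year. No juvenile was labelled as from a colony, and whether Raven was held in captivity was not examined. Sheila, a juvenile female riding on the back of her mother Puku, was set apart because her ratio of galactose to cytochrome P450 genes was already known to resemble that of adults, and she is placed against both groups at the end. The livers of 32 pouch young, aged from under 2 to 109 days and 8 of them from a colony per the labels, are given as context only. One of these, labelled male, had 0 reads on 14 tested genes of the Y contigs, so that its sex label and its reads disagree, and counts and positions of pouch young are also given without it.

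Until weaning a brushtail possum lives on milk, and afterwards mainly on leaves and other plant food. The liver secretes most proteins of the blood plasma, supplies glucose between meals, turns the ammonia of amino acid breakdown into urea, makes bile acids from cholesterol, and clears compounds of the diet. In eutherian mammals many of these functions mature around birth and weaning, while genes of fetal liver and of cell division are turned down.

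Each value is the log2 of the reads on a gene scaled to a common library size (log2 CPM), without correction for gene length, so levels are compared between animals and not between genes. Reads on genes ranged from 8160891 to 42929401 in juveniles and from 4913366 to 115914834 in adults. Absence of reads appears as -5.63 to -3.24 in juveniles and as -7.09 to -2.53 in adults, depending on depth, so differences in rare transcripts are also given with values below 0 set to 0 (the common floor). Genes of hepatocytes were abundant in every liver. For example, *TTR* (transthyretin, the plasma carrier of thyroid hormone) lay between 10.69 and 13.16 and *APOA1* (the main protein of high-density lipoprotein) between 10.71 and 13.86 in all 51 livers, Sheila included.

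Of 18332 genes tested, 2485 were higher in juveniles (13.6%) and 1447 were lower (7.89%), with kit in the model, a limma adjusted p under 0.05 and a minimum log2 difference of 1. These shares are the background for list counts below that come from this fit. List counts from any other fit are to be read against the calls of that fit over all genes. With values below 0 set to 0, 1232 of the 18332 genes were higher and 1192 lower. With Sheila added to the juveniles, 2096 were higher and 1176 lower. The calls within kits and against own mothers are given below in this paragraph. The median difference over all genes was 0.08. In 243 genes (1.33%) every juvenile exceeded every adult, and in 247 genes (1.35%) every juvenile was below every adult. With adults from the year of the juveniles only, 2472 genes were called higher and 1389 lower. Within kits, 2025 genes were called higher and 833 lower among NEXTFLEX libraries, as against 1872 and 1630 among NEBNext libraries. Among the 5 pairs of young and own mother, 2043 of the genes called higher were higher in every young and 1115 of the genes called lower were lower in every young. Over all genes tested, 22.1% were higher and 13.0% lower in every young. A fit with young and mother as a block called 2603 genes higher (14.2%) and 1181 lower (6.44%), and counts "against own mothers" below come from it. The share of calls that were higher depended on rare transcripts. It was 63.2% as deposited, 50.8% with values below 0 set to 0, 52.4% among the 13470 genes with at least 1 CPM in 6 livers, and 74.5% after scaling to the 75th percentile of each library, which moved the median difference to 0.26.

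**Figure D1:**
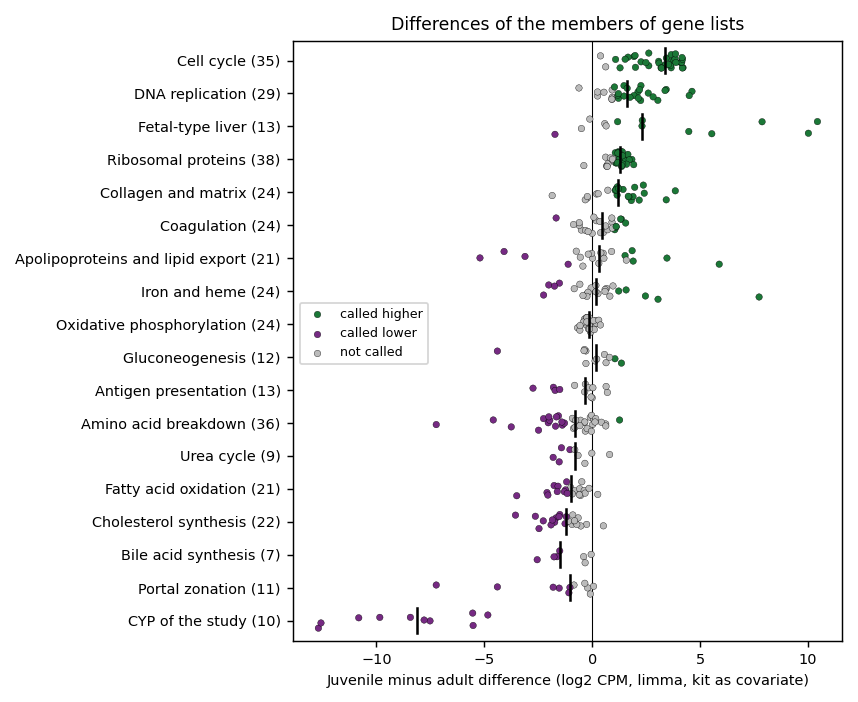
Juvenile minus adult difference (log2 CPM) of every measured member of the gene lists, with 1 point per gene and the median of each list as a line. Cell cycle genes lie to the right with a median of 3.38, ribosomal proteins cluster around 1.28, and genes of cholesterol synthesis (median -1.23) and bile acid synthesis (-1.51) lie to the left.

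The 8 largest differences in each direction were taken among genes without overlap and with the same direction in every pair, leaving out the galactose, cytochrome P450 and globin genes, alpha-fetoprotein and *H19*. *IGF2BP3*, an RNA-binding protein of fetal tissues in eutherians, lay between 8.64 and 9.88 (median 9.36) in juveniles and between -1.38 and 4.83 (median 1.85) in adults. No juvenile overlapped an adult, and the difference was 7.87 (SE 0.54, limma adjusted p = 5.63e-17), or 7.79 with values below 0 set to 0. *SLC24A1*, a sodium, calcium and potassium exchanger best known from photoreceptors, was at 4.18 to 5.79 (median 5.26) in juveniles and at -5.65 to 0.57 (median -3.57) in adults, most of which were at or near 0 reads. Its difference of 8.50 (SE 0.54, limma adjusted p = 3.17e-18) fell to 5.07 on the common floor.

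*AGR2*, a disulfide isomerase of mucus-secreting cells, differed by 8.16 (SE 0.58, limma adjusted p = 2.04e-16), or 3.96 on the floor. It ranged from 2.13 to 5.96 in juveniles and did not exceed 0.02 in any adult. *STEAP1*, of a family of membrane metalloreductases, had 20 reads in 11 of the 44 adults together, and its mean CPM was 743-fold higher in juveniles (95% Poisson interval 481 to 1217, for counting error only). *CLTRN* (collectrin, a partner of amino acid transporters) was at 1.96 to 3.63 (median 3.15) in juveniles, at -5.80 to -0.59 (median -3.32) in adults and at a mean of 0.02 in pouch young. The juvenile mean was above those of both younger and older livers, and its difference from adults was 6.35 (SE 0.57, limma adjusted p = 5e-13). *LOC118832575*, *LOC118845732* and *CCER2* completed the 8 largest, with differences of 9.15, 6.98 and 6.66 (5.08, 4.13 and 3.90 on the floor).

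Among genes that were lower in juveniles, *DAO* (D-amino acid oxidase) was at -3.77 to 0.28 (median -1.36) in juveniles and at 4.77 to 7.28 (median 6.53) in adults. The groups stood far apart, by 7.88 on the log2 scale (diff -7.88, SE 0.30, limma adjusted p = 3.31e-27). *SRD5A2*, steroid 5-alpha reductase, which converts testosterone to dihydrotestosterone, was at 5.63 to 7.94 (median 6.94) in adults of both sexes. Juveniles ranged from -5.30 to 5.13, with 220920_PY01 at the top of that range (difference -7.80, SE 0.54, limma adjusted p = 6.74e-17). That animal was below every adult too, which the choice of genes without overlap requires. *ACSM5*, a mitochondrial medium-chain acyl-CoA synthetase, fell by 7.11 (SE 0.43, limma adjusted p = 7.56e-19). *GABBR2*, a subunit of the GABA-B receptor, had 5 reads in all juveniles together, and adults were 394-fold higher in mean CPM (Poisson interval 169 to 1215). The remaining 4 of the 8 were *LOC118842639* (-8.74), *LOC118840821* (-7.77), *LOC118840810* (-7.44) and *LOC118853824* (-7.24), whose products are not given in the sources used here.

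**Figure D2:**
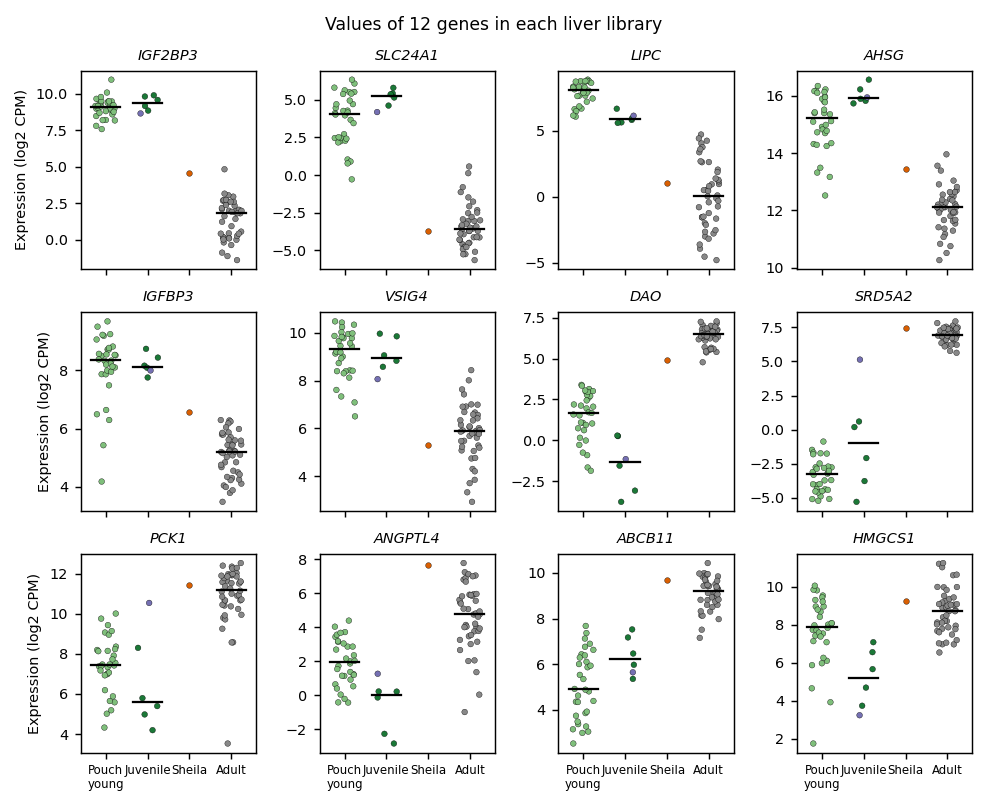
Levels (log2 CPM) of 12 genes in each liver, with 1 point per library for pouch young, juveniles, Sheila and adults. *IGF2BP3* and *AHSG* are above every adult in all 6 juveniles, *DAO* and *SRD5A2* are below every adult, and in *PCK1* and *ABCB11* the groups overlap.

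Genes typical of eutherian fetal liver were higher in part. Of 13 members tested, 8 were higher and 1 was lower (none lower against own mothers), with a median of 2.31 (0.96 on the floor). In NEBNext libraries alone 6 were higher. The list includes *H19*, which the study picked for following the ratio of galactose to cytochrome P450 genes in these livers. Its call was fixed by that choice and is no finding. Besides alpha-fetoprotein and *H19*, the RNA-binding *IGF2BP1* (5.54) and the stem cell transcription factor *SALL4* (4.48) were above all adults in every juvenile, but both were rare transcripts and their differences were 0.96 and 1.34 on the floor. *GPC3*, a heparan sulfate proteoglycan of fetal liver and liver tumours, went the other way, with medians of -0.93 in juveniles and 0.87 in adults (difference -1.73, SE 0.41, limma adjusted p = 0.000632). That call was not made against own mothers. *IGF2*, a fetal growth factor, was 1.18 higher (SE 0.18, limma adjusted p = 7.03e-07). Juveniles ranged from 9.42 to 12.11 with a median of 9.92, and the call was lost without 250620_PY01 and in NEBNext libraries alone.

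In the axis of growth hormone and IGF, 4 of 20 genes were higher and 2 were lower (1 lower against own mothers), beside a median of 0.06. *IGFBP3*, the main carrier of IGFs in plasma, was at 7.75 to 8.74 (median 8.13) in juveniles and at 3.48 to 6.29 (median 5.20) in adults. Every juvenile exceeded every adult, with a difference of 3.10 (SE 0.31, limma adjusted p = 1.6e-11). *IGFALS*, the third protein of that plasma complex, was 1.55 higher (SE 0.60, limma adjusted p = 0.0337), but 0.75 higher than own mothers (blocked adjusted p = 0.147). *IGF1*, the hormone itself, was at 5.29 to 8.00 (median 6.89) in juveniles and at 6.34 to 9.32 (median 8.08) in adults (difference -1.31, SE 0.31, limma adjusted p = 0.000602). Compared with own mothers, *IGF1* was higher in 2 young and lower in 3, and the blocked fit did not call it. *GHR*, the growth hormone receptor, differed by -0.47 (SE 0.22, limma adjusted p = 0.0781), and *PRLR*, the prolactin receptor, was 1.83 lower (diff -1.83, SE 0.48, limma adjusted p = 0.00167).

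Most transcripts of cell division tested were higher in juveniles. Of 35 cell cycle genes 33 were higher, with a median of 3.38 (1.88 on the floor), and of 29 genes of DNA replication 21 were higher, with a median of 1.62 (0.99 on the floor). *MKI67*, a marker of cells outside the resting state, was at 3.72 to 5.52 (median 4.97) in juveniles and at -1.69 to 6.07 (median 1.13) in adults (difference 3.38, SE 0.58, limma adjusted p = 4.87e-06). Of the adults 1 (6.07) reached the range of juveniles, the next highest being at 3.69, and each of the 5 young exceeded its mother. *CDK1*, the kinase that starts mitosis, was 4.11 higher (SE 0.71, limma adjusted p = 5.02e-06) and *RRM2*, which makes deoxynucleotides, 4.16 higher (SE 0.71, limma adjusted p = 3.79e-06). *MCM4*, of the replicative helicase, was 3.04 higher (SE 0.36, limma adjusted p = 1.58e-09), at 2.41 in 220920_PY01 as the lowest juvenile. Globins and precursors of red cells, given below with the cell types, were also higher in part, and their share in the cell cycle result was not tested.

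Ribosomal proteins shifted together by a smaller amount. Of 38 members 29 were higher, with a median of 1.28 (1.46 after 75th percentile scaling), and this was 17 of 38 in NEXTFLEX libraries and 29 in NEBNext libraries. *RPS20* was at 5.94 to 8.21 (median 6.24) in juveniles and at 3.18 to 7.44 (median 4.34) in adults (difference 1.92, SE 0.24, limma adjusted p = 4.16e-09). Its 2 highest juveniles, at 8.21 and 7.92, were the NEXTFLEX ones, whose mothers were at 6.66 and 7.04. With Sheila counted as a juvenile, 11 of the 38 were called. None of 24 genes of oxidative phosphorylation was called by limma, by limma-voom or within either kit, while 2 were higher and 7 lower at an unadjusted p under 0.05, a level that 24.4% of all genes reached as higher and 22.8% as lower.

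Genes of the extracellular matrix were also higher in part. Of 24 genes for collagens and matrix 17 were higher (11 in NEBNext libraries alone), and of all 39 collagen genes 23 were higher (13 on the common floor). *COL1A1*, fibrillar collagen I, was at 3.68 to 6.74 (median 4.77) in juveniles and at -3.18 to 4.92 (median 1.84) in adults (difference 3.43, SE 0.54, limma adjusted p = 1.05e-06), and was higher in each young than in its mother. *MMP2*, a gelatinase, separated the groups without overlap (difference 3.85, SE 0.34, limma adjusted p = 3.03e-13). Some markers of hepatic stellate cells, which make matrix in the liver, were also higher. Of 12 markers of stellate and smooth muscle cells 5 were higher and 7 were not called (1 lower against own mothers), their summed level was 309 to 689 CPM in juveniles and 102 to 450 CPM in adults, and *RELN* (reelin), with medians of 7.61 and 3.74, did not overlap (difference 3.61). In whole liver, fewer cells of a type and less RNA per cell cannot be told apart, and the part of stellate cells in the matrix result was not tested.

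Genes that break down amino acids or make urea were lower in part, and of those that supply glucose *PCK1* was lower. This key enzyme of gluconeogenesis was at 4.19 to 10.54 (median 5.59) in juveniles and at 3.53 to 12.53 (median 11.21) in adults (difference -4.39, SE 0.68, limma adjusted p = 7.73e-07). The overlap came from 1 adult at 3.53 and from 220920_PY01 at 10.54. In the pairs, the young and its mother were at 4.19 and 8.57, 5.39 and 11.58, 8.30 and 10.67, 5.79 and 10.37, and 4.98 and 10.93, so that every young was lower. The rest of the list of gluconeogenesis and glycogen did not follow *PCK1*. Of 12 members, *SLC37A4*, the glucose 6-phosphate carrier of the endoplasmic reticulum, was 1.35 higher without overlap (SE 0.17, limma adjusted p = 5.23e-09), *GYS2*, liver glycogen synthase, was 1.05 higher, a call lost against own mothers, and 9 were not called.

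Amino acid breakdown had 14 of 36 genes lower and 1 higher, with a median of -0.78. *SDS*, serine dehydratase, which turns serine into pyruvate, was at -4.58 to 2.67 (median -0.63) in juveniles and at 2.26 to 10.86 (median 6.16) in adults (difference -7.23, SE 0.86, limma adjusted p = 2.02e-09), with both NEXTFLEX juveniles and 040820_PY01 below -3. Alanine aminotransferase *GPT* fell by 4.58 (SE 0.41, limma adjusted p = 5.76e-13). *TDO2* (tryptophan dioxygenase, -2.49) and *AGXT* (which clears glyoxylate, -2.01) were below every adult in every juvenile. Tyrosine aminotransferase *TAT* was not called (difference -0.86, SE 0.43, limma adjusted p = 0.105). Of 9 urea cycle genes 4 were lower. The entry enzyme *CPS1* was at 9.53 to 10.92 (median 10.30) in juveniles and at 11.25 to 13.15 (median 12.20) in adults, without overlap (difference -1.81, SE 0.20, limma adjusted p = 4.06e-10). *ARG1*, which releases urea, was 1.53 lower (diff -1.53) and *ASL*, the step before it, 1.43 lower (diff -1.43).

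Genes of fat oxidation were lower in part. Of 21 genes of fatty acid oxidation 10 were lower (median -0.99), and of 7 genes of ketone bodies 3 were lower. *ACADS*, the short-chain acyl-CoA dehydrogenase, was at 5.03 to 5.72 (median 5.22) in juveniles and at 7.35 to 9.94 (median 8.79) in adults (difference -3.50, SE 0.18, limma adjusted p = 1.71e-21). The groups did not overlap. The medium-chain enzyme *ACADM* was 1.76 lower (diff -1.76, SE 0.26, limma adjusted p = 2.42e-07) and *PDK4*, which spares glucose by blocking pyruvate entry, 2.05 lower (diff -2.05). *CPT1A*, the gate of mitochondrial import, was not called (difference -0.99, SE 0.42, limma adjusted p = 0.0547). For ketone bodies, *BDH1*, which makes beta-hydroxybutyrate, was 2.66 lower (diff -2.66) without overlap. No gene of these lists was called higher. At an unadjusted p under 0.05 limma gave 1 higher and 17 lower in fatty acid oxidation, and 1 higher and 3 lower in ketone bodies.

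Fat synthesis was mixed, with 4 of 18 genes higher and 2 lower (3 and 3 against own mothers), and its median of -0.56 was 0.50 in NEXTFLEX libraries alone. *FADS1* and *FADS2*, the desaturases that make long polyunsaturated fatty acids, were 2.84 higher (SE 0.38, limma adjusted p = 2.78e-08) and 2.41 higher (SE 0.62, limma adjusted p = 0.00135). *SREBF1*, the lipogenic transcription factor, was 2.03 higher (SE 0.63, limma adjusted p = 0.00751), with a range of 0.18 to 8.80 among adults that covered all juveniles, and was not called in NEBNext libraries alone.

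Cholesterol synthesis had 12 of 22 genes lower, with a median of -1.23. *HMGCS1*, which makes the precursor of mevalonate, was at 3.25 to 7.08 (median 5.18) in juveniles and at 6.54 to 11.24 (median 8.74) in adults (difference -3.56, SE 0.52, limma adjusted p = 2.08e-07). *MSMO1*, a demethylase of the late pathway, was 2.63 lower (diff -2.63, SE 0.47, limma adjusted p = 9.01e-06) and squalene epoxidase *SQLE* 2.27 lower (diff -2.27). Against own mothers 7 of the 22 were lower and the call of *IDI1* was lost, and in NEXTFLEX libraries alone 1 was lower, while NEBNext libraries gave 12. In the pairs, *HMGCS1* was lower in 4 young, and in the pair of 250620_PY01 the young was at 7.08 and the mother at 6.97.

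**Figure D3:**
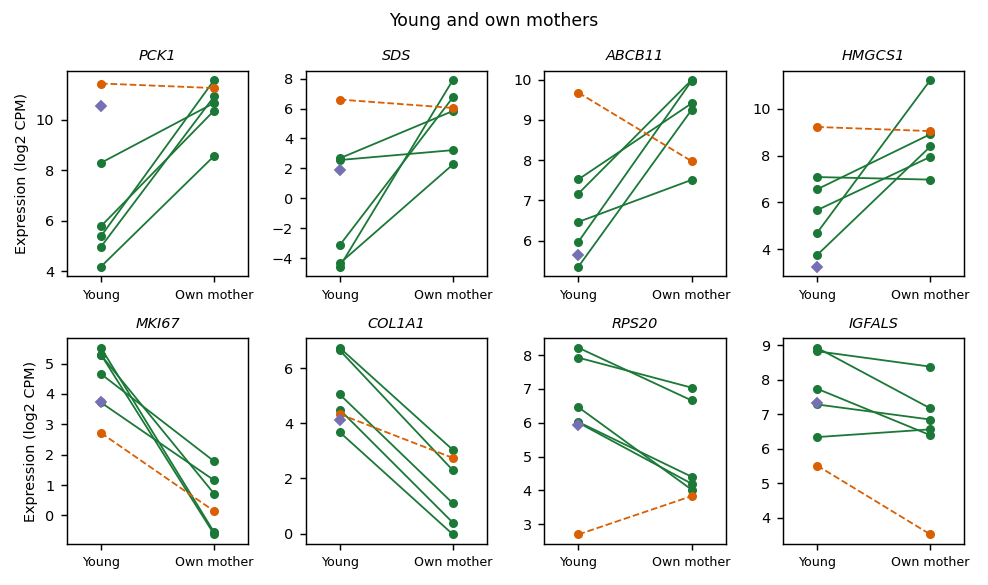
Levels (log2 CPM) in young and own mother for 8 genes, with lines joining the 5 pairs (green), Sheila and Puku (orange, dashed), and 220920_PY01 as a purple diamond without a mother. *PCK1*, *SDS* and *ABCB11* are lower in every green young, *MKI67*, *COL1A1* and *RPS20* are higher in every green young, and Sheila and Puku lie close together for *PCK1* (11.44 and 11.26) and *HMGCS1* (9.23 and 9.05).

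In bile acid synthesis 4 of 7 genes were lower (median -1.51). The peroxisomal oxidase of bile acid side chains, *ACOX2*, was at 5.23 to 6.59 (median 5.59) in juveniles and at 7.08 to 9.95 (median 8.30) in adults (difference -2.55, SE 0.27, limma adjusted p = 8.64e-11). *SLC27A5*, which activates bile acids for conjugation, was 1.77 lower (diff -1.77). *HSD3B7*, an early enzyme of the route, was not called (difference -0.40, limma adjusted p = 0.105). Of 15 genes of bile acid transport and sensing 3 were higher, 2 were lower and 10 were not called. *ABCB11*, the bile salt export pump, was at 5.35 to 7.52 (median 6.22) in juveniles and at 7.15 to 10.43 (median 9.21) in adults (difference -2.77, SE 0.31, limma adjusted p = 3.51e-10). The sterol exporters *ABCG5* and *ABCG8*, which act as a pair and lie side by side on chromosome 3, were above every adult in every juvenile, with medians of 2.28 and 2.19 against -4.56 and -4.21. Their differences were 5.63 and 5.62 (1.64 and 1.85 on the floor), and pouch young were lower than juveniles, with means of -2.63 and -1.52. The subunits of the basolateral bile acid exporter went apart, *SLC51A* by -2.24 and *SLC51B* by 3.95, but both calls were lost on the floor and that of *SLC51A* also against own mothers.

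Of 21 genes of apolipoproteins and lipid export 5 were higher and 4 lower. Hepatic lipase *LIPC* was at 5.59 to 6.66 (median 5.87) in juveniles and at -4.80 to 4.71 (median 0.07) in adults (difference 5.89, SE 1.04, limma adjusted p = 8.07e-06). All juveniles exceeded all adults, and adults spread over a range far wider than that of juveniles. *LPL*, lipoprotein lipase, which adult liver of eutherians expresses little, was 3.46 higher (SE 0.42, limma adjusted p = 2.39e-09). Its fasting-induced inhibitor *ANGPTL4* was at -2.82 to 1.27 (median 0.05) in juveniles and at -0.97 to 7.77 (median 4.79) in adults (difference -5.20, SE 0.80, limma adjusted p = 5.67e-07). *APOC4* (-4.08) and *APOA5* (-3.11), apolipoproteins of triglyceride-rich particles, were below every adult in every juvenile, while *APOA1* was not called (0.51, SE 0.29, limma adjusted p = 0.158).

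Among plasma proteins, *AHSG* (fetuin-A, an inhibitor of calcification) was at 15.74 to 16.57 (median 15.93) in juveniles and at 10.26 to 13.96 (median 12.11) in adults (difference 3.97, SE 0.29, limma adjusted p = 4.06e-16). The 10 hepatocyte markers summed to 92080 to 136300 CPM in juveniles and to 28740 to 66280 CPM in adults, but without *AHSG* the other 9 summed to 37390 to 43360 CPM and to 20300 to 61320 CPM, which overlap. Of those 10 markers 2 were higher and 1 lower (2 lower against own mothers). Among 24 coagulation genes 6 were higher (median 0.46), among them *F11* (1.55, SE 0.22) and *F7* (1.35, SE 0.16), while *HRG* (histidine-rich glycoprotein) was 1.67 lower (diff -1.67) and below every adult. Of 21 complement genes 3 were lower, including *C1S* (-1.45) and *C3* (-1.15), the latter call being lost without 120820_PY01. *ITIH3*, a plasma protein that binds hyaluronan, was 1.92 higher (SE 0.22, limma adjusted p = 9.29e-10) without overlap and was the only called gene of 10 for the acute phase, where own mothers gave 3 higher and 1 lower. Of 17 serpins, the protease inhibitors, 6 were higher, led by *SERPINI1* (3.13).

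Genes of metals and hormones were called in both directions. Of 24 genes of iron and heme 5 were higher (20.8%, beside 13.6% of all genes), 4 were lower (16.7%, beside 7.89%) and 15 were not called. *HFE*, a sensor of iron load, was 1.57 higher (SE 0.17, limma adjusted p = 1.78e-10) and *BMP6*, a signal for hepcidin made by endothelium, 2.25 lower (diff -2.25, SE 0.30, limma adjusted p = 3.28e-08), both without overlap. *HPX* (hemopexin, which carries heme in plasma) was 1.75 lower (diff -1.75), and *FECH*, the last step of heme synthesis, 2.01 lower (diff -2.01). For zinc, copper and selenium, 5 of 13 were higher and 2 lower (1 lower against own mothers), including the zinc importer *SLC39A5* (3.40, SE 0.59), the plasma selenoprotein *GPX3* (2.03, SE 0.32) and the copper importer *SLC31A1* (-1.23). The deiodinases were opposed. *DIO3*, which inactivates thyroid hormone, was at 3.95 to 4.74 (median 4.51) in juveniles and at -0.60 to 4.16 (median 2.17) in adults (difference 2.49, SE 0.42, limma adjusted p = 3.9e-06). *DIO2*, which activates it, was at 3.19 to 6.17 (median 4.91) in juveniles and at 5.43 to 9.63 (median 7.47) in adults (difference -2.68, SE 0.45, limma adjusted p = 2.94e-06). *LRAT*, which stores vitamin A and also marks stellate cells, was 2.21 higher (SE 0.25, limma adjusted p = 3.29e-10) without overlap.

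Of 23 transcription factors and sensors that govern xenobiotic and hepatocyte genes 1 was higher and 3 lower (5 lower against own mothers). *CEBPB* was at 2.74 to 4.44 (median 3.65) in juveniles and at 4.53 to 7.97 (median 6.24) in adults (difference -2.80, SE 0.31, limma adjusted p = 4.01e-10). The 10 cytochrome P450 genes of the study had a median of -8.11 and the 4 galactose genes one of 2.07, with all members called. The study chose both sets for their change at weaning in these livers, so that their calls were fixed by that choice and are no finding. Among glutathione S-transferases 2 of 4 were lower (*MGST2*, -1.82, no overlap). Of 16 aldehyde dehydrogenases 3 were higher and 3 lower, from *ALDH1L2* at 4.75 (SE 1.21), a mitochondrial folate enzyme, to its cytosolic relative *ALDH1L1* at -2.58 (SE 0.34). Of 286 solute carriers 40 were higher (14.0%, beside 13.6% of all genes) and 45 lower (15.7%, beside 7.89%), with a median of -0.09, and against own mothers 48 were higher (16.8%, beside 14.2% of all genes in that fit) and 35 lower (12.2%, beside 6.44%). Besides *SLC24A1*, they include the zinc exporter *SLC30A2* (6.87, 3.33 on the floor) and *SLC25A48*, a mitochondrial carrier (6.49, 3.46 on the floor). Of 35 ABC transporters 5 were higher and 10 lower. Of 36 kinesins 15 were higher and 4 lower (2 lower against own mothers), the widest being *KIF12* (4.25, SE 0.53, no overlap) and, in the other direction, neuronal *KIF1A* (-3.42, SE 0.59). The urinary lipocalin ganderin had 0 reads in all 6 juveniles and ranged from 0 to 835 CPM (median 155) in adults, of which 1 had no reads either. The adult mean was at least 10540-fold higher against a floor of 3 reads over the group. Vulpeculin had 4 reads in 1 juvenile and ranged from 0 to 9074 CPM (median 1755) in adults, again with 1 adult without reads. Both lipocalins, like *H19*, were picked by the study for following the ratio of those sets in these livers, so their difference is a description.

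Hepatocytes divide tasks between the central vein and the portal tract. Of 11 portal genes 6 were lower (median -1.03, 4 lower against own mothers), and these include *SDS*, *PCK1*, *CPS1* and *ARG1* from above. Of 11 central genes 1 was higher and 2 were lower. *SLC1A2*, a glutamate transporter, was at -2.21 to 0.91 (median -0.33) in juveniles and at 4.28 to 7.63 (median 5.63) in adults (difference -6.33, SE 0.40, limma adjusted p = 2.23e-18). The Wnt feedback enzyme *NOTUM* was 3.37 lower (diff -3.37, SE 0.33, limma adjusted p = 6.49e-12), while the Wnt-enhancing receptor *LGR5* was 2.68 higher (SE 0.41, limma adjusted p = 5.12e-07), each without overlap. Glutamine synthetase *GLUL*, the standard central marker, was not called (0.81, SE 0.27, limma adjusted p = 0.0145, under the minimum difference of 1).

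Genes of immune recognition were lower in part. Of 13 antigen presentation genes 4 were lower (2 against own mothers). *TAP1*, which pumps peptides to class I molecules, was at 0.87 to 2.11 (median 1.34) in juveniles and at 2.38 to 7.66 (median 4.03) in adults (difference -2.74, SE 0.43, limma adjusted p = 9.38e-07), and *B2M*, their light chain, had medians of 8.14 and 9.76 (SE of the difference 0.36, limma adjusted p = 5.03e-05). Both were below every adult in every juvenile. Of 14 interferon response genes 1 was higher and 2 lower (1 lower against own mothers). Markers of T and NK cells had 1 of 13 lower, with a sum of 13.7 to 30.5 CPM in juveniles and 12.9 to 179.5 CPM in adults, and their part in these differences was not tested. Of 11 macrophage markers 1 was called (2 against own mothers), *VSIG4*, the complement receptor of Kupffer cells, which was 3.25 higher (SE 0.42, limma adjusted p = 1.75e-08), while *CD68* was not called (-0.76, SE 0.32, limma adjusted p = 0.052).

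Further cell types were checked by their markers. Of 11 markers of sinusoidal endothelium 4 were higher, such as *CLEC4G* (1.61), with a sum of 393 to 609 CPM against 184 to 758 CPM. Transcripts of red cells were higher in part. Of 5 globin genes tested 3 were higher (2 against own mothers), and the summed globin level was 191 to 654 CPM in juveniles and 1.3 to 1203 CPM (median 36.97) in adults, of which 6 reached the juvenile range or exceeded it. Of 15 markers of red cell precursors 8 were higher, and 1 of them was called on the floor. Their summed level was 64.5 to 179.3 CPM in juveniles and 48.9 to 230.8 CPM in adults, and band 3 (*SLC4A1*) was at -3.24 to 1.04 in juveniles. Of 10 bile duct markers 3 were higher and 1 lower (1 and 1 against own mothers). Of 7 markers of skeletal muscle 2 were higher and 1 lower, with *TNNT3* (fast troponin T) 6.21 higher and *MB* (myoglobin) -3.79, at summed levels of 3.57 to 12.80 CPM in juveniles. Of 5 gut and pancreas markers 2 were higher (1 against own mothers). One of these, *VIL1* (villin, of the brush border), reached at most 0.08 in juveniles and its difference of 4.10 was 0.01 on the floor. Of 20 genes of stress and handling 1 was higher and 3 lower (0 and 1 against own mothers by limma).

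Some called genes also lay next to each other on the chromosomes. Runs of at least 4 neighbouring tested genes called in the same direction were sought after the values had been seen, and 14 runs with 68 genes were higher and 11 runs with 55 genes were lower. With 13.6% of all tested genes called higher and 7.89% lower, some runs arise without clustering. Their expected number was not computed, so the counts of runs are a description. On chromosome 3 (mTriVul1.pri), 5 neighbours from 377626262 to 377920331 were lower with a median of -6.88, and these include *LOC118842639* and *LOC118840810*. A further 4, from 378547737 to 378804149, were lower with a median of -4.05, and *LOC118840821* lies between these runs. In this second run the difference of *LOC118840822* was -3.53 in NEBNext and -7.00 in NEXTFLEX libraries, and the gap of -3.47 between kits passed the test (SE 0.44, limma interaction adjusted p = 4.4e-06). On chromosome 8, 7 neighbours from 37487702 to 38009573 (median -5.82), 6 from 38092089 to 38784978 (median -5.17) and 5 from 80721070 to 81283400 (median -4.67) were lower, and each of these runs holds cytochrome P450 genes of the study. *ABCG8*, *ABCG5*, *DYNC2LI1* and *PLEKHH2* formed a run of 4 higher genes on chromosome 3 from 349560742 to 349826236, and *FADS1* and *FADS2* stood with *FADS3* and *RAB3IL1* on chromosome 6 from 271720238 to 271951298. Where near-identical copies lie side by side, uniquely mapped reads can be lost or shared unequally between them, and values of single *LOC* genes in these runs are uncertain for that reason.

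Juvenile livers were close to pouch young livers in most of these genes. Among 637 genes called higher with a mean of at least 3 in juveniles, the juvenile mean was nearer to the pouch young mean than to the adult mean in 611, and among 989 genes called lower it was nearer in 935. Exceptions in which juveniles lay beyond pouch young by at least 1 were 65 and 96 genes, and those in which pouch young lay beyond juveniles by as much were 51 and 91. Without the pouch young library whose sex label disagrees with its reads, these 6 counts were 612, 936, 65, 98, 52 and 90. *CLTRN* is an example of the former. *MKI67* had a mean of 6.72 in pouch young of all ages, against 3.72 to 5.52 in juveniles. In pouch young of 66 days or more it was at 2.67 to 5.96, a range that covers the juveniles.

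To place single animals, each of these axis genes was scaled so that the adult mean was 0 and the juvenile mean 1 after the kit effect was removed, and the position of an animal was its median over the axis genes with the axis refitted without it. No test was made on positions. Sheila, who defined neither end, was at 0.01 over 1626 genes, with the middle part of her genes (25th to 75th percentile) between -0.31 and 0.30. She lay inside the adults, which ranged from -0.16 to 0.23 with a median of 0.002, with 28 adults below her and 16 above. The juveniles other than 220920_PY01 were at 0.91 to 1.03 (mean 0.98 ± 0.05, SD, n = 5). The animal 220920_PY01 was at 0.79, below the other 5 and far above every adult. Pouch young were at 0.82 to 1.18 (median 0.95, or 0.93 without the library noted above). The adult nearest the juveniles, 180521_FG_PF2, was at 0.23.

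**Figure D4:**
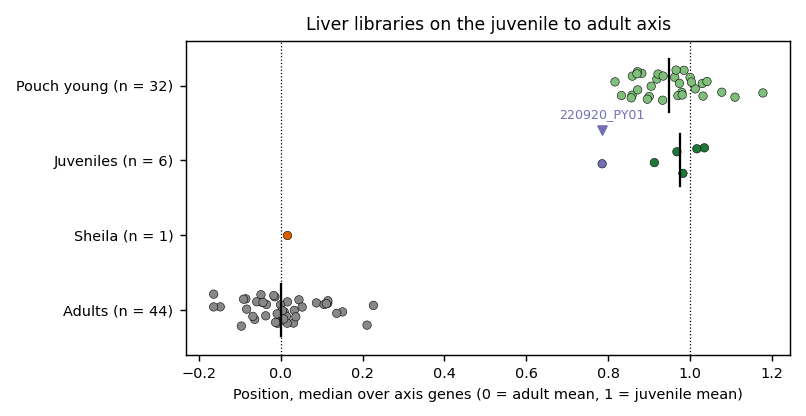
Position of each liver on the juvenile to adult axis, as the median over axis genes (0 = adult mean, 1 = juvenile mean), with 1 point per animal. Sheila (0.01) lies among the 44 adults, 220920_PY01 (0.79) lies below the other 5 juveniles (0.91 to 1.03), and no animal lies between 0.23 and 0.79.

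The same was seen gene by gene. Of the 243 genes in which all 6 juveniles exceeded all adults, Sheila was in the adult range in 217, beyond it on the far side from juveniles in 3, in the juvenile range in 8 and between the groups in 15. Of the 247 genes in the other direction these counts were 215, 13, 7 and 12. *IGF2BP3* was at 4.54, above 43 of the 44 adults, whose highest (4.83) was 180521_FG_PF2 and whose next highest was at 3.16. *DAO* was at 4.92, below 43 of the 44 adults, and *SRD5A2* at 7.48, above 39 of them. Without 180521_FG_PF2, a shallow library of 5681836 reads on genes, she was in the adult range in 214 of the 243 genes and in 214 of the 247. *SLC24A1*, *AGR2* and *STEAP1* had no reads in Sheila, in a library with 10928772 reads on genes. Her *PCK1* of 11.44 was next to that of her mother Puku, 11.26, and her *ABCB11* of 9.68 was above that of Puku, 7.97.

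Positions differed between lists. Her position was 0.01 for galactose genes, 0.02 for the cytochrome P450 genes, 0.09 for fetal-type genes, -0.04 for cholesterol synthesis and 0.16 for amino acid breakdown. Her ratio of galactose to cytochrome P450 genes was known beforehand, so her positions on those sets are no finding. The fetal-type list had 4 axis genes and includes *H19*, picked by the study for following that ratio. With the galactose and cytochrome P450 genes left out, her position over 1612 axis genes was 0.01. For cell cycle genes it was 0.38, with *CCNA2* (cyclin A2) at 3.17 within the juvenile range, which starts at 2.31. It was 0.37 for collagens and matrix (13 axis genes) and 0.46 for iron and heme (6 axis genes). For antigen presentation it was 0.54 and for complement 0.63 (3 axis genes each). These positions are in the upper part of the adult range. Ribosomal proteins lay outside it on the other side, at -1.31, where adults ranged from -0.74 to 0.97, with her mother Puku as the lowest. *RPS20* was at 2.70 in Sheila and 3.83 in Puku, where the other 14 NEXTFLEX adults were at 5.91 to 7.44 and the NEBNext adults at 3.18 to 4.97. Without removal of the kit effect, her summed ribosomal proteins (1802 CPM) were inside the range of all adults (1489 to 6321 CPM) but below those of the other 14 NEXTFLEX adults (3245 to 6321 CPM) and of Puku (3435 CPM). In Sheila 235 of 1626 genes (14.5%) were nearer the juvenile mean, a share that ranged from 2.5% to 36.2% among adults. The 8 nearest to a position of 1 were *PER3* (a clock gene, 4.45 in Sheila, 3.13 to 4.92 in juveniles, -3.33 to 2.54 in adults), *CCNA2*, *BPNT2*, *OASL*, *SUSD3*, *LOC118846200*, *LOC118856663* and *LOC118856979*. Of these, *PER3* and *LOC118856979* separate juveniles and adults without overlap. Her library had 92.1% of its total on genes, against 94.8 to 96.1% in juveniles and 91.6 to 95.8% in adults. Her summed red cell precursor markers were 282 CPM, above the highest adult (230.8). Her globins summed to 15.5 CPM, below the adult median of 36.97. Her summed macrophage markers were 324.9 CPM, below every adult (372.2 to 1437 CPM). The part of blood cells and macrophages in her position was not tested.

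**Figure D5:**
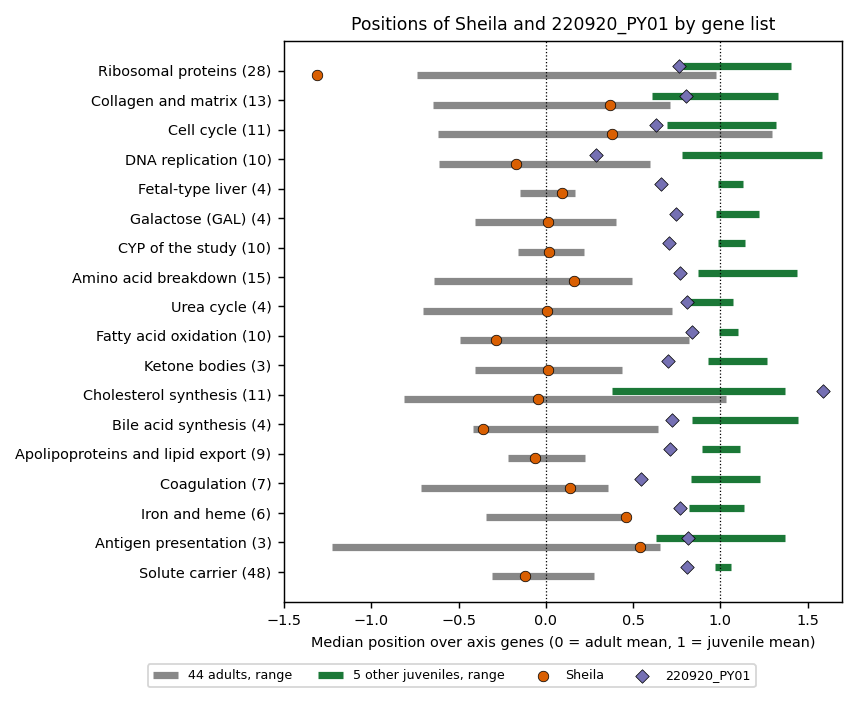
Median position of Sheila (orange) and 220920_PY01 (purple) over the axis genes of each list, with the ranges of the 44 adults (grey) and the other 5 juveniles (green). Sheila is within the adult range in the lists shown other than ribosomal proteins (-1.31), and 220920_PY01 is within the adult range and below the other juveniles for DNA replication (0.29) and beyond the juveniles for cholesterol synthesis (1.59). In ribosomal proteins and cell cycle genes other juveniles reach into the adult range as well.

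The position of 220920_PY01 differed between the genes of either direction. Over the 752 genes higher in juveniles it was 0.66, below the other 5 juveniles (0.85 to 1.11). Over the 989 lower genes it was 0.88, within their range (0.80 to 1.12). A gap of similar or larger size was seen in 190320_PY01 (1.11 over higher and 0.80 over lower genes), 250620_PY01 (1.11 and 0.89) and 120820_PY01 (0.85 and 1.12). It was smaller in 280720_PY01 and 040820_PY01. Where the other 5 juveniles were above all adults (420 genes), 220920_PY01 was within the adult range in 177 and between the groups in 126. It was within the juvenile range in 107 and beyond the juveniles in 10. Where they were below all adults (294 genes), these counts were 47, 55, 150 and 42. Both sets were chosen from the other 5 juveniles without 220920_PY01, which by itself favours such shortfalls. The counts were not made with another juvenile left out. Of its 1741 axis genes 370 were nearer the adult mean. The share nearer the juvenile mean was 78.7%, against 87.1% to 93.3% in the other 5, each with the axis refitted without it. Alpha-fetoprotein was at 10.99, below the other juveniles (13.53 to 14.15), and *H19* at 6.48 (others 10.15 to 11.60), both still above every adult. Among genes that were lower, *PCK1* at 10.54 and *SRD5A2* at 5.13 were the highest of the juveniles. These are single genes, and in 192 of the 294 lower genes counted above this animal was within the juvenile range or beyond it.

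By list, 220920_PY01 was at 0.29 for DNA replication (others 0.78 to 1.58, adults -0.61 to 0.60), 0.47 for aldehyde dehydrogenases, 0.54 for coagulation and 0.63 for cell cycle. It was at 0.66 for fetal-type genes, 0.71 for the cytochrome P450 genes and 0.74 for galactose genes, below the other 5 in each. In 9 of the 36 lists with at least 3 axis genes it was within the adult range. In 7 of these, namely the growth hormone and IGF axis, cell cycle, fatty acid synthesis, gluconeogenesis, complement, stress and ribosomal proteins, at least 1 other juvenile was within it too, so that DNA replication and aldehyde dehydrogenases were the 2 in which 220920_PY01 alone was. Cholesterol synthesis was an exception at 1.59, beyond the others (0.38 to 1.37), with the lowest *HMGCS1* (3.25) and *MSMO1* (3.14) of any juvenile. *ABCG8*, at 3.70, was the highest of the juveniles. Among the 8 genes in which 220920_PY01 was nearest to the adult mean were *SCAMP5*, *NUP205*, *LOC118846467*, *LMNB2*, *GLT8D1*, *CITED2* and *NCAPD3*. In *NUP205* (2.70 against 3.25 to 4.33 in the other juveniles) and *NCAPD3* (2.14 against 2.77 to 3.78), of the nuclear pore and of condensin, it was the lowest juvenile. The choice of genes by nearness to the adult mean favours that rank. The calls of *LMNB2*, *SCAMP5*, *LOC118846467* and *CITED2* were lost against own mothers and under further settings. This library was the deepest of the juveniles (42929401 reads on genes), had the lowest 75th percentile (3.97, others 4.14 to 4.69) and was the only one with no mother analysed. The part of depth in its position was not tested, and on 75th percentile scaling it was at 0.76.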

How the data were processed

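Liver RNA of brushtail possums, caught in the field or, for some samples of the study, held in captivity, was poly(A) enriched and made into strand-specific libraries with 2 kits, NEXTFLEX and NEBNext. Per the labels, reads were trimmed with Trim Galore 0.6.7 and aligned with HISAT2 2.2.1 to the assembly of the study (mTriVul1.pri). The authors then quantified 23816 genes from uniquely mapped reads in SeqMonk and deposited log2 values, which the column naming calls RPKM but which behave as log2 CPM without division by length. Every value came out as a whole number of reads (100% within a tolerance of 0.05 of a read), with 0.9 of a read standing for no reads.

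Genes detected in 6 or more of the 50 livers were tested with limma 3.58.1 (R 4.3.3), with group and kit in the model and Benjamini-Hochberg adjustment. Calls required an adjusted p under 0.05 together with a log2 difference of 1 or more in size. The script was tested on simulated data. Positions used called genes with a mean of at least 3 in the higher group. Plots were drawn with matplotlib 3.10.9, and tables were made with pandas 2.3.3 and scipy 1.17.1 in Python 3.11.15. Alternatives were each kit alone, sex as a covariate, adult females, adults from the year of the juveniles, leaving out each juvenile, a block for young and mother, Sheila added, other scalings, floors, filters and limma-voom on the recovered reads. Bounds for low counts used 3 reads and 95% Poisson intervals, which cover counting error only.

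The labels name the mother of each of the 6 juveniles, and 5 of these mothers are among the adults. Deviations of young from the group means correlated with those of the own mother at r = 0.352, 0.281, 0.164, 0.341 and 0.386, and at most at 0.12, 0.115, 0.2, 0.253 and 0.00197 with another mother. Young and mother are relatives and share day and place, so they are not independent.

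Members, gene lists and families were chosen with earlier results of these data known. Genes were named as the 8 largest differences in each direction without overlap and with the same direction in all 5 pairs, up to 3 called genes and the first member of each list, and the 8 nearest to the opposite group for each placed animal. Further genes, and the runs of neighbours, were chosen after their values were seen. Of 871 list entries 142 had no row of that name. Products of *LOC* genes were named only where the study gives them, as for alpha-fetoprotein (*LOC118852573*), *H19* (*LOC118853838*), vulpeculin (*LOC118842298*) and ganderin (*LOC118843263*). Some named genes are not reported here.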

Additional observations from a re-analysis of the deposited data

Results flagged for a closer look

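Of 195 gene values checked over the 6 juveniles, 11 had a juvenile set apart from the others by a gap of more than 0.625 of the whole range, where chance alone sets apart about 1 in 20. In 5 of these the animal was 220920_PY01. It had alpha-fetoprotein (*LOC118852573*) at 11 against 13.53 to 14.15 in the others, *H19* (*LOC118853838*) at 6.48 against 10.15 to 11.60, *LOC118832575* at 2.50 against 5.07 to 6.13, and *CCER2* at 2.26 against 4.02 to 4.40. *LOC118842639*, which was lower in juveniles, was at -0.482 against -4.58 to -3.15. In all 5 genes the shift was towards the adult side. *LOC118832575*, *CCER2* and *LOC118842639* were named among genes without overlap of the groups, so that choice itself keeps every juvenile outside the adult range there.

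In 280720_PY01, *SPP1* (osteopontin) was at 5.81 against -4.21 to -0.75, *SLC51A* at 1.55 against -3.09 to -1.77, and *PSMB9*, of the immunoproteasome, at 1.62 against 2.18 to 2.47. In 190320_PY01, *SDSL*, a relative of serine dehydratase, was at -4.21 against -0.50 to 1.31, and *ALAS1*, the first enzyme of heme synthesis, at 4.63 against 2.70 to 3.40. In 250620_PY01, *LOC118856663* was at 7.40 against 6.44 to 6.78. The call of *SPP1* was lost without 280720_PY01.

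A limma interaction of group with sex had an unadjusted p under 0.05 in 529 of 18332 genes and passed adjustment in 2. Both lie on contigs that the study assigned to the Y chromosome and had at most 1 read in any female, so the test says nothing about them. An interaction of group with kit passed adjustment in 2 genes (1020 at an unadjusted p under 0.05), *LOC118840822*, described above, and *LOC118833329*, with differences of 0.90 in NEBNext and 9.85 in NEXTFLEX libraries. The latter gene, which the study lists as synaptonemal complex central element protein 1-like, is on a Y contig. Both NEXTFLEX juveniles were male, so sex and kit cannot be told apart there.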

How the results depend on the processing

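The counts of genes were 2485 higher and 1447 lower. The higher count was 1232 with values below 0 set to 0 and 1532 among genes of at least 1 CPM, and the lower count was 833 in NEXTFLEX libraries alone, which hold 2 juveniles. Under the remaining settings both counts stayed within 1.5 times. Leaving out each juvenile gave 2272 to 2593 higher and 1345 to 1574 lower, adding Sheila 2096 and 1176, and limma-voom 2664 and 1401. With young and own mother as a block (replicate block), 2603 were higher and 1181 lower, sharing 80.2% and 69.9% of the calls. Without the adult 180521_FG_PF2, left out after the data were seen, 2527 were higher and 1508 lower.

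Sheila was at 0.1082 with no minimum level for axis genes and between -0.0615 and 0.0833 otherwise, with 0.00335 to 0.0280 over the juveniles left out in turn. The position of 220920_PY01 was 0.6575 over higher genes only and 0.8843 over lower genes only, and 0.734 to 0.804 over the juveniles left out in turn.

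Of 186 called genes among those named or checked, 130 were called under every setting and none reversed. The block lost 24 calls, among them *PSMB9*, *NLRC5*, *OASL*, *C4BPA*, *PNPLA3*, *INSIG1*, *JCHAIN* and *SUSD3*. In NEXTFLEX libraries alone *ARG1*, *DIO2*, *KIF1A*, *MSMO1*, *PRLR*, *SLC39A5* and *SQLE* were not called. The causes were not tested. Depth limits rare transcripts most, since a gene without reads could stand anywhere below -2.53 in the shallowest adult.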

Other observations

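Of 18 genes on the contigs assigned to the Y chromosome by the study, 14 were tested, and in 1 of them every juvenile male exceeded every adult male. This was *LOC118833339* (Un_JAANDE010000157v1, 123063 to 126561, minus strand), at 6.01, 4.90 and 5.21 in the 3 juvenile males and at -4.29 to 1.94 (median -2.19) in 29 adult males. It ranged from 4.74 to 8.19 in 17 pouch young males, and the remaining pouch young library labelled male had 0 reads on all 14 genes, in a total of 2846616 reads on genes. No female library of the 19 juveniles and adults, Sheila included, had more than 1 read on this gene. *LOC118833329* (Un_JAANDE010000154v1, 254552 to 264662, plus strand) was at 3.71, 6.89 and 0.82 in juvenile males and at -7.09 to 2.62 in adult males, so that the groups overlapped, and had 0 reads in those females. Both genes were singled out after their values were seen.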
